A study of Homo sapiens with 4 samples.

Results

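The NEK kinases are the human relatives of NIMA, a fungal serine/threonine kinase needed for entry into mitosis. Their messenger RNAs were measured in THP1, an established human monocytic leukaemia cell line, after transfection with an miR-511-5p mimic or a control mimic. The family was followed through every probe on the array whose gene name was NEK1, NEK2, NEK3, NEK4, NEK5, NEK6, NEK7, NEK8, NEK9 or NEK11. This gave 10 genes of the 27193 gene names or identifiers on the array, carried by 14 of 34127 probes, and 13 of these probes, from 9 genes, entered the test. Both groups were THP1 cells transfected once at 30 nM and harvested on day 2 after culture in low serum with albumin. The first group received the miR-511-5p mimic (n = 2) and the second received negative control #1, a mimic with no intended target (n = 2). A single line under transient transfection, compared with a single control mimic, is the model throughout. Each of the 2 independent experiments supplied 1 array per group, and each array held Cy3-labelled RNA of bulk cells. The comparison addresses which NEK messenger RNAs differed in level when miR-511-5p was supplied in excess.

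NEK kinases divide their work between the cell division cycle, the primary cilium and the response to DNA damage. NEK2 sits at the centrosome and loosens the linker between the centrosome pair before mitosis, while NEK9 binds and activates NEK6 and NEK7, which act on spindle assembly. NEK8 works in the inversin compartment of the cilium and is known for its part in nephronophthisis, a cystic kidney disease. NEK1 is linked to cilia and DNA repair, NEK4 and NEK11 to DNA damage signalling, and NEK7 has a further role as a binding partner of NLRP3, the sensor of an inflammasome in monocytes and macrophages.

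A microRNA recognises messenger RNAs mainly through its seed, bases 2 to 8, which pair with a complementary stretch of the transcript. The mature miR-511-5p, with its seed in capitals, and the oligonucleotides through which the study read NEK8 are shown because NEK8 is the member whose array difference passed the test. The microRNA lies at chr10:17845122-17845142 on the plus strand of GRCh38.p14, and its sequence comes from RefSeq. The first 30 bases of the NEK8 array probe come from the deposited array files, and the primers are those designed by the study for RT-qPCR of NEK8.
hsa-miR-511-5p: gUGUCUUUugcucugcaguca
NEK8 array probe, first 30 bases: tgcctcgggtgattgctacacttttggcag
NEK8 forward primer: gggcatcaagatggcaatggtag
NEK8 reverse primer: agggtgtttccatggcaacag
The complement of the seed, AAAGACA, stood in 331 of all 34127 probe sequences (0.97%) and in 0 of the 14 NEK probes. Read on the other strand, TGTCTTT stood in 332 probes and again in 0 NEK probes. This search covered the probe sequences alone, so it says nothing of the rest of the transcripts.

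A probe counts as detected on an array where the scanner software called its signal well above the local background. This held for 64.8% to 69.3% of probes depending on the array, and 0 spots were saturated. Of the genes chosen as markers of a monocytic leukaemia line, 7 of 8 measured ones were well above background on all 4 arrays, and 0 of 3 epithelial markers were on any. Markers of other blood lineages were not absent, since 1 of 3 T cell genes, 2 of 3 B cell genes and 2 of 2 erythroid genes were well above background on all 4 arrays. Their part in the NEK values was not tested. All arrays lay on the same slide, each at a position of its own, so position and sample cannot be told apart. Of 92 NEK spots over the 4 arrays, 4 were not well above background, and these were the 4 spots of the NEK5 probe.

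Levels are given as log2 intensity after quantile normalization and can be compared between arrays within a probe, not between probes. All 13 tested probes were well above background on all 4 arrays. NEK5 is the member without a tested probe. Its only probe, at chr13:52639300-52639359 on the minus strand of hg19, was not well above background on each of the 4 arrays, so its difference was not tested.

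**Figure D1:**
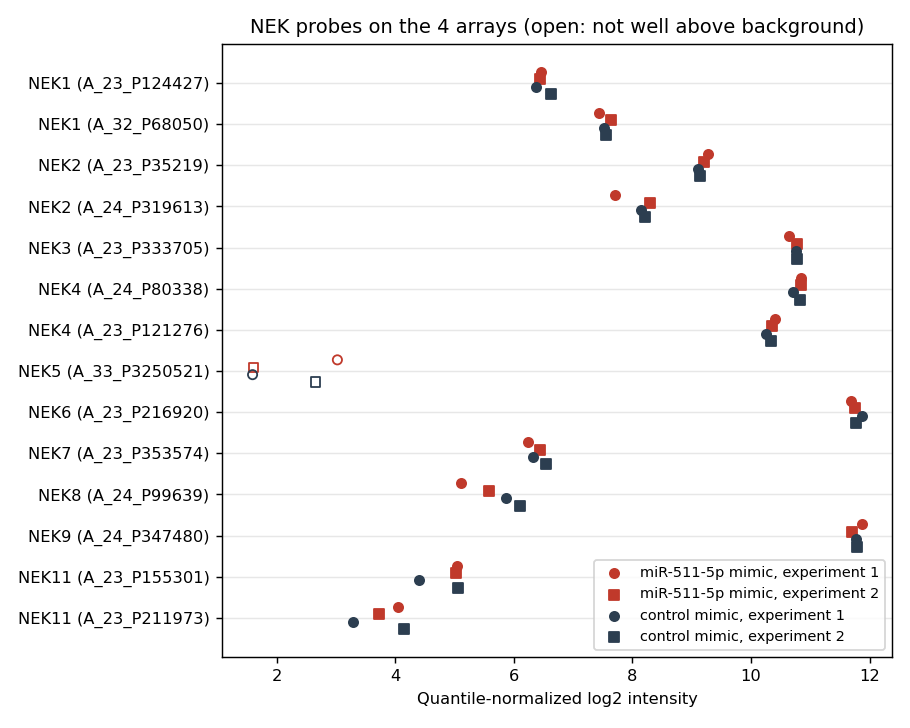
Log2 intensity (x axis, quantile-normalized) of each of the 14 NEK probes (y axis, gene and probe) on the 4 arrays, with miR-511-5p mimic in red, control mimic in dark blue, circles for experiment 1 and squares for experiment 2. Open symbols are not well above background, which holds for NEK5 on every array, and for NEK8 both red points (5.11 and 5.58) lie left of both blue points (5.87 and 6.11).

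Across the family, 1 of the 13 tested probes passed an unadjusted p of 0.05, the threshold taken here, in limma's moderated test, and it was NEK8, which fell. Among all 22638 tested probes, 2.20% passed, 0.932% in the lower direction and 1.27% in the higher. This balance turned with 75th percentile scaling (1.16% lower, 0.954% higher) and in each fit that left out 1 of the mimic arrays. With the experiment as a block, 3.95% passed, and NEK8 was again the 1 NEK probe among them. None of the 22638 probes passed after Benjamini-Hochberg adjustment in limma, against 498 before adjustment, and the smallest adjusted p was 0.79. The median log2 difference, mimic minus control, was -0.0043 over the NEK probes and 0.0098 over all tested probes. The median size of the difference regardless of sign was 0.096 for the NEK probes and 0.079 for all tested probes. The 12 NEK probes other than NEK8 differed by less than 2 standard errors. With 2 arrays a group, an exact permutation test of any single probe cannot go below p = 0.333.

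**Figure D2:**
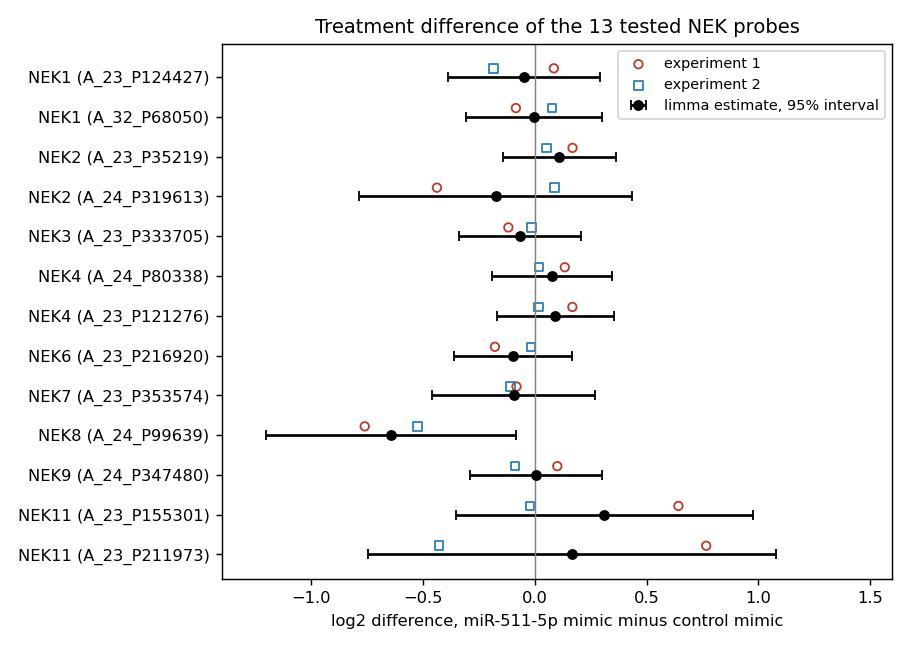
Log2 difference (x axis, miR-511-5p mimic minus control mimic) of the 13 tested NEK probes (y axis). Black points are the limma estimates with their 95% intervals, and open red circles and blue squares are experiments 1 and 2. The NEK8 interval, from -1.20 to -0.08, is the one that does not reach 0.

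NEK8, the ciliary kinase, was lower with the miR-511-5p mimic in both experiments. Its probe A_24_P99639 spans chr17:27068002-27068153 on the plus strand of hg19, a stretch of 152 bases for a 60-base probe, so that its genomic match is interrupted. The log2 intensity was 5.11 with the mimic and 5.87 with the control in experiment 1, and 5.58 and 6.11 in experiment 2. Both mimic arrays were therefore below both control arrays. The mean was 5.34 ± 0.34 with the mimic and 5.99 ± 0.17 with the control (SD, n = 2 each). The log2 difference was -0.64 with an SE of 0.20, a 1.56-fold lower level, with an unadjusted p = 0.0327 and an adjusted p = 1.00 in limma. A log2 difference this low or lower was found for 322 of the 22638 tested probes (1.42%). The study picked NEK8 for RT-qPCR from these same arrays, so its direction here is a description and not independent evidence. Because the RNA came from bulk cells, fewer cells with the transcript and less of it per cell cannot be told apart.

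The NEK8 signal was dim. Before normalization its processed intensity was 29.9 with the mimic and 63.6 with the control in experiment 1, and 51.7 and 67.8 in experiment 2. The lowest intensity called well above background on an array ranged from 9.07 to 10.9. NEK8 was itself called so on all 4 arrays, so its values could not lie below that range's array minimum. The scanner software gave each NEK8 intensity an error of between 11.1% and 16.0%. Carried to the log2 difference within an experiment, that error was 0.28 in experiment 1 and 0.23 in experiment 2. The differences of -0.76 and -0.53, taken after quantile normalization, were 2.71 and 2.24 times as large. The error belongs to the intensities before normalization, so the scales are unlike and these ratios are approximate. Before normalization the log2 intensities were 4.90 with the mimic and 5.99 with the control in experiment 1. They were 5.69 and 6.08 in experiment 2, so normalization brought the ratios of the experiments closer together.

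The NEK8 call depended on single arrays. Its difference was below 0 under each of 13 alternative settings and stayed past the threshold under 7 of them. Without mimic replicate 1 it was -0.41 (limma, unadjusted p = 0.0811), without control replicate 1 it was -0.76 (limma, unadjusted p = 0.0561), and without control replicate 2 it was -0.52 (limma, unadjusted p = 0.132). With normexp, which starts from the mean and background signals in place of the processed signal and adds an offset of 50, about the size of the NEK8 intensities, it was -0.18 (limma, unadjusted p = 0.11). The parts of the signal, the correction and the offset in that value were not tested.

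**Figure D3:**
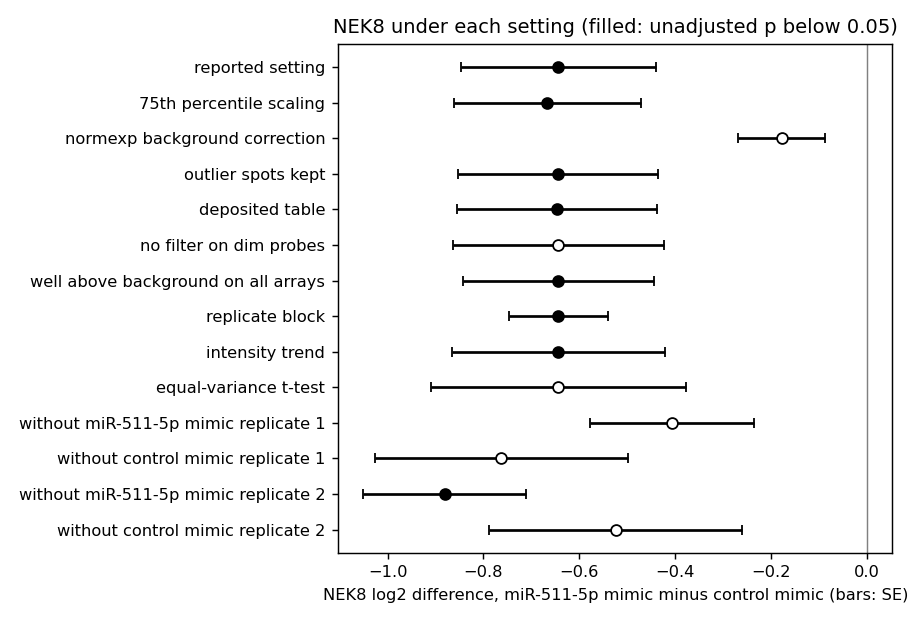
Log2 difference of NEK8 (x axis, miR-511-5p mimic minus control mimic) under the reported setting and 13 alternatives (y axis), with bars of 1 standard error; filled points have an unadjusted p below 0.05. All points lie below 0, between -0.88 without mimic replicate 2 and -0.18 with normexp background correction.

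Of the mitotic members, none passed the test. NEK2, the centrosome kinase, has 2 probes, which differed in sign. A_23_P35219, at chr1:211836861-211836920 on the minus strand, read 9.27 and 9.20 with the mimic and 9.10 and 9.15 with the control in experiments 1 and 2. The mimic arrays were both above the control arrays, by a log2 difference of 0.11 with a 95% interval from -0.14 to 0.36. The second probe, A_24_P319613, lies at chr1:211842588-211842647 on the same strand and read 7.71 and 8.29 with the mimic against 8.15 and 8.21 with the control. The mimic array of experiment 1 was the low one, and the groups overlapped. The log2 difference of this probe was -0.18 (95% interval -0.79 to 0.44), which was 0.29 away from that of the first probe. Leaving out 1 mimic array made its sign depend on the array that stayed: -0.47 without replicate 2 (limma, unadjusted p = 0.0292) and 0.12 without replicate 1. Wherever 1 array was left out, the lone array was assumed to vary like the pair of the other group.

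NEK9, which switches on NEK6 and NEK7, was read by A_24_P347480 at chr14:75548925-75548984 on the minus strand. Its log2 intensity was 11.87 and 11.70 with the mimic and 11.77 and 11.79 with the control in experiments 1 and 2. The mimic arrays stood on either side of both controls, and the log2 difference was 0.0049 (95% interval -0.29 to 0.30). NEK6 (A_23_P216920, chr9:127114617-127114676, plus strand) read 11.69 and 11.75 with the mimic and 11.86 and 11.77 with the control. These groups did not overlap, but in experiment 2 the log2 difference was only -0.017. The log2 difference of NEK6 was -0.098 (95% interval -0.36 to 0.17). NEK7, the close relative of NEK6 that also serves the NLRP3 inflammasome, was read by A_23_P353574 at chr1:198288674-198288733 on the plus strand. Its log2 intensity was 6.24 and 6.44 with the mimic and 6.33 and 6.54 with the control. The mimic was lower within each experiment, yet the groups overlapped, because experiment 2 was above experiment 1 in both groups. The log2 difference was -0.096 (95% interval -0.46 to 0.27).

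Of the members tied to DNA damage signalling, NEK11 had the widest spread. Its probe A_23_P155301, at chr3:130889661-130889720 on the plus strand, read 5.04 and 5.03 with the mimic and 4.40 and 5.05 with the control in experiments 1 and 2. Only the control array of experiment 1 stood apart, and the groups overlapped. The log2 difference was 0.31 with a 95% interval from -0.36 to 0.97, and it was 0.64 without control replicate 2 (limma, unadjusted p = 0.0148) but -0.016 without control replicate 1, so its size turned on which lone control array stayed. The second probe, A_23_P211973, spans chr3:130947511-130962317 and read 4.06 and 3.72 with the mimic against 3.29 and 4.15 with the control. Its processed intensity before normalization was only 11.2 to 17.4. The lowest intensity called well above background on an array was 9.07 to 10.9, so this probe was near the floor. The difference was 0.77 in experiment 1 and -0.43 in experiment 2, so this probe moved in opposite directions. Its log2 difference over both was 0.17 with a 95% interval from -0.74 to 1.08.

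NEK1, linked to cilia and DNA repair, showed no direction shared by the experiments. A_23_P124427, at chr4:170315352-170315411 on the minus strand, read 6.46 and 6.45 with the mimic and 6.38 and 6.63 with the control, with a log2 difference of -0.050 (95% interval -0.39 to 0.29). A_32_P68050, which spans chr4:170345940-170347344, read 7.44 and 7.64 with the mimic and 7.53 and 7.56 with the control, with a log2 difference of -0.0043 (95% interval -0.31 to 0.30). Each probe was higher with the mimic in a single experiment, and these were not the same experiment. NEK3, a member with a known part in prolactin receptor signalling, was read by A_23_P333705 at chr13:52707148-52707207 on the minus strand. It read 10.63 and 10.77 with the mimic and 10.75 and 10.78 with the control, and the groups overlapped. The log2 difference was -0.067 (95% interval -0.34 to 0.21).

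NEK4 is the member measured most often, because its probe A_23_P121276, at chr3:52771669-52771728 on the minus strand, was printed 10 times on each array. The mean of its spots was 10.41 and 10.35 with the mimic and 10.25 and 10.34 with the control in experiments 1 and 2. With 1 spot left out that the scanner software marked as an outlier, both mimic arrays were above both control arrays. The log2 difference was 0.092 (95% interval -0.17 to 0.35). The other NEK4 probe, A_24_P80338 at chr3:52744814-52744873, read 10.84 and 10.85 against 10.70 and 10.83, a log2 difference of 0.076 (95% interval -0.19 to 0.34). The 2 NEK4 probes were thus 0.015 apart in their log2 difference, with the marked spot left out.

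The repeated spots show the error within an array. Leaving out marked spots, the coefficient of variation of the 10-spot NEK4 probe was 5.78% on the mimic array and 7.34% on the control array of experiment 1, and 4.06% and 7.48% in experiment 2. On the mimic array of experiment 1 a single spot stood at 345 scanner units, 29.0% of the median of 1190, while the next lowest was at 1077, and the scanner software marked it as an outlier. The spot printed at the same place was the lowest on every array, at 79.1% of the median on the control array of experiment 1, 92.4% on the mimic array of experiment 2 and 85.5% on its control. The 1 marked spot decided the sign of this probe, since keeping it moved the log2 difference from 0.092 to -0.00017.

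**Figure D4:**
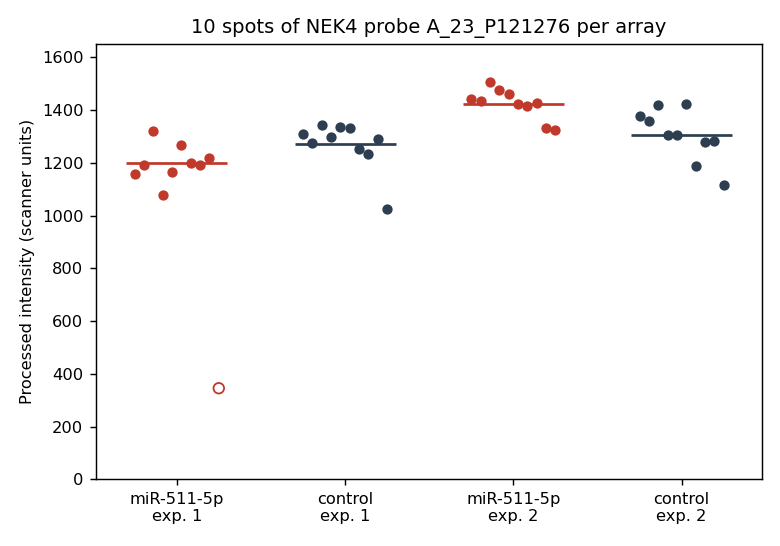
Processed intensity (y axis, scanner units) of the 10 spots of NEK4 probe A_23_P121276 on each array (x axis), with miR-511-5p mimic in red and control mimic in dark blue; horizontal lines are means of the unmarked spots. The open circle at 345 on the first array is the 1 spot marked as an outlier.

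The experiments were then compared over the members. Of the 13 tested probes, 7 moved the same way in both experiments, against 51.0% of all tested probes. The log2 differences of experiments 1 and 2 correlated at r = 0.038 across all 22638 tested probes, which are not independent replicates. The 7 NEK probes were NEK8, NEK3, NEK6, NEK7, both NEK4 probes and NEK2 probe A_23_P35219. The groups did not overlap for 5 of 13 probes, against 25.7% of all tested probes. Lower with the mimic were NEK8 and NEK6 (10.1% of all tested probes), and higher were both NEK4 probes and NEK2 probe A_23_P35219 (15.6%). NEK4 probe A_23_P121276 stands in both counts with its marked spot left out, and keeping that spot moved its log2 difference to -0.00017. For the 12 probes printed once, the quantile-normalized difference within an experiment was set against the error given by the scanner software. That error belongs to the intensities before normalization, covers the reading of a spot and leaves out variation between transfections and between arrays. NEK8 was at 2.71 and 2.24 times that error in experiments 1 and 2. NEK2 probe A_24_P319613 was at 2.12 times its error in experiment 1 and 0.43 times in experiment 2. The NEK11 probes were at 2.33 and 1.94 times in experiment 1, and at 0.0897 and 1.21 times in experiment 2. Each of the other single-spot probes stayed below its error in both experiments. This order holds for the normalized differences and depends on the normalization. Before it, the log2 intensities in experiment 1 were 4.84 with the mimic and 4.55 with the control for NEK11 probe A_23_P155301. For NEK6 they were 11.50 and 11.91.

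**Figure D5:**
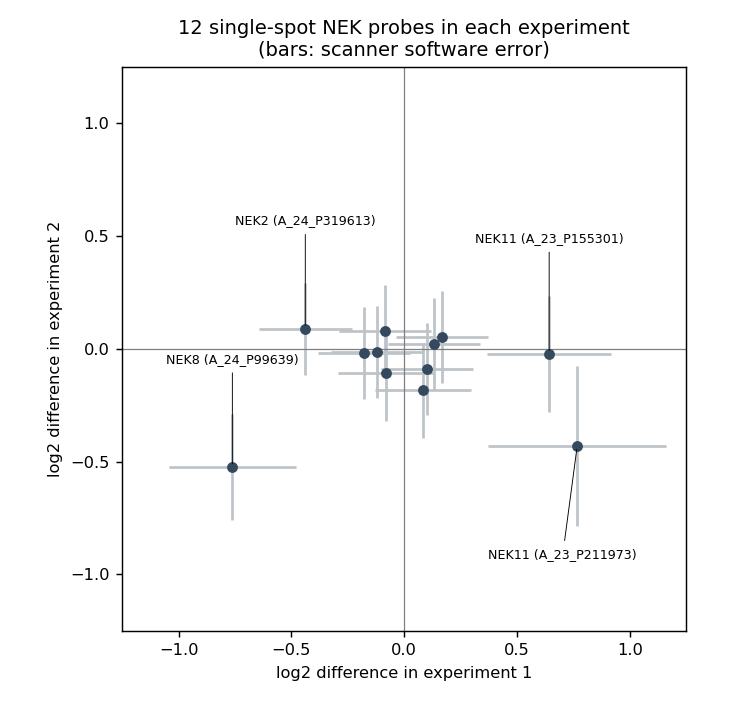
Log2 difference (miR-511-5p mimic minus control mimic) in experiment 1 (x axis) and in experiment 2 (y axis) for the 12 NEK probes with a single spot. Bars are the scanner software's error, taken from intensities before normalization, while the differences are after it. NEK8 lies at -0.76 and -0.53, while NEK11 probe A_23_P211973 lies at 0.77 and -0.43.

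The genes that work with the NEK kinases were examined as lists of 48 genes, of which 47 had a probe under their listed name and 44 had a tested probe. BORA, the missing one, is named on the array by an older symbol and was not included. Over all lists, 1 of 66 tested probes passed the unadjusted threshold, against 2.20% of all tested probes, and the median log2 difference was 0.015. None of 16 probes for the centrosome linker and NEK2 regulation passed (median -0.026), nor did any of 15 probes for the mitotic partners of NEK9, NEK6 and NEK7 (median 0.030). None of 11 probes for the inversin compartment around NEK8 passed (median -0.018), and those 11 probes ranged from -0.16 to 0.068. None of 16 probes for DNA damage partners passed in the same fit (median 0.057).

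The call among the partners was IL1B, the cytokine that the NLRP3 inflammasome matures, 1 of 8 probes on the inflammasome list (median -0.026). IL1B rose with the mimic. Its log2 intensity was 7.40 and 7.53 with the mimic and 7.20 and 7.15 with the control in experiments 1 and 2, and the groups did not overlap. The log2 difference was 0.29 with an SE of 0.10 (limma, unadjusted p = 0.0429, adjusted p = 1.00). The study chose IL1B too on these arrays, so it is not independent evidence of its list. Leaving out any single array ended the IL1B call, with values between 0.22 and 0.36 and unadjusted p between 0.0598 and 0.175 in limma. IL1B was higher under all 13 alternatives. As its groups did not overlap, its sign could change only with 75th percentile scaling, normexp, outlier spots kept and the deposited table. It lost its call under 9 of the 13, with an unadjusted p in limma from 0.0519 upward. Besides the single arrays, these were 75th percentile scaling, normexp, an intensity trend, a test of each probe with its own spread alone and the experiment as a block. With the block, its unadjusted p in limma was 0.0531, and 1 PRKDC probe, for the catalytic subunit of DNA-dependent protein kinase, was called instead (log2 difference 0.31, unadjusted p = 0.0422 in limma). PRKDC is named because of that call, after its values were seen.

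The profile of NEK8 over the 4 arrays was compared with those of 18078 other tested probes that carried a gene symbol and were well above background on every array. Likeness was measured as the root mean square distance between deviations from each probe's own mean, in log2 units over 4 arrays. The nearest were PSD4 at 0.054, DPP3 at 0.056 and CCDC57 at 0.073, and 6 probes lay within 0.1. Their log2 differences were -0.62, -0.57 and -0.59, which lie near that of NEK8 because the probes were chosen by these same 4 values. PSD4 and DPP3 did not pass the unadjusted threshold in limma. The 4 arrays are the only points behind each distance, so other probes lay close as well, with 210 within 0.2.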

How the data were processed

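Total RNA of THP1 cells was hybridised to 4 one-colour Agilent 4x44K v2 arrays, 2 per group. The authors deposited scanner files of Feature Extraction (version 10.5.1.1 per the labels, 10.7.3.1 in the file headers), whose processed signal is a background-subtracted intensity, and a table of log2 values that the authors had normalized between arrays by the quantile method, which was used as an alternative. Probe coordinates are those of the files (hg19). All 14 NEK probes matched a RefSeq transcript of the same symbol (GRCh38.p14 names). Here, log2 processed signals of non-control spots, without spots marked as outliers, were quantile-normalized and averaged per probe in R 4.3.3. A probe was tested (22638 were) when the 2 arrays of 1 group or more had it well above background. The main comparison was fitted with limma 3.58.1 without a block, two-sided, with Benjamini-Hochberg adjustment over all tested probes and 95% intervals from the moderated statistic. The unadjusted p of 0.05 was used as the calling threshold. The script was tested on simulated data. The number of arrays limits the precision.

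The titles number the experiments, and the study describes them as independent, so the same number pairs the arrays by experiment. As a check, each array's distance from its group mean was correlated between the mimic and control arrays of an experiment, which gave 0.27 over 22638 probes. The members, the partner lists (regulators and partners known for each kinase) and the marker lists were chosen with earlier results of these data known. Every NEK probe was reported, partners were named when past the unadjusted threshold, and for NEK8 the 3 nearest profiles were named. Alternatives were 75th percentile scaling, normexp correction (offset 50) of the mean and background signals, outlier spots kept, the deposited table, dim probes kept or filtered more strictly, the experiment as a block, an intensity trend, an equal-variance t-test of each probe and leaving out each array, where the lone array was taken to vary like the other group.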

Additional observations from a re-analysis of the deposited data

How the results depend on the processing

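Under 13 alternatives NEK8 remained lower with the miR-511-5p mimic, and its log2 difference lost its call under 6: -0.18 with normexp, -0.64 without a filter on dim probes (limma, unadjusted p = 0.0555), -0.64 with an equal-variance t-test of each probe (unadjusted p = 0.136), and without mimic replicate 1 (-0.41), control replicate 1 (-0.76) or control replicate 2 (-0.52). The sign of the NEK8 difference could change only with 75th percentile scaling, normexp, outlier spots kept and the deposited table. Leaving out 1 array gave -0.88 to -0.41, with the call kept at -0.88, without mimic replicate 2. The cause was not tested, beyond the fewer samples of the last kind. NEK probes called numbered 1 in the reported fit, and 0 with normexp, without the filter and with the t-test. Of all tested probes, 2.20% were called in the reported fit, 1.17% with normexp, 3.02% without the filter and 3.13% with the t-test. Without mimic replicate 2, the log2 difference of NEK2 A_24_P319613 was -0.47. Without control replicate 2, that of NEK11 A_23_P155301 was 0.64. NEK partner probes called numbered 1 in the reported fit, 0 with 75th percentile scaling, 2 with normexp (TPX2, PRKDC), without the filter and with the t-test (TPX2, VDAC1), and 0 to 1 when 1 array was left out. Equal counts were not the same call: the 1 was PRKDC with the intensity trend and without mimic replicate 2, CDK5RAP2 without mimic replicate 1 and EML2 without control replicate 1. All probes called numbered 498 in the reported fit, 265 with normexp, 1029 without the filter, 285 with an intensity trend, and 516 to 1379 when 1 array was left out, the highest without mimic replicate 2.

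With the experiment as a replicate block, 894 of all probes (3.95%) were called, NEK8 kept its call at -0.64 (limma, unadjusted p = 0.00856), and 1 NEK probe and 1 partner probe were called. The block changed no other NEK call.

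Signs of the uncalled NEK probes were not stable. NEK4 A_23_P121276 turned to -0.00017 with outlier spots kept and -0.00029 in the deposited table, and NEK9 to -0.057 with normexp. Leaving out 1 array moved NEK1 A_23_P124427 between -0.18 and 0.076, NEK1 A_32_P68050 between -0.10 and 0.094, NEK2 A_24_P319613 between -0.47 and 0.12, NEK3 between -0.13 and 0.00020, NEK7 between -0.20 and 0.013, NEK9 between -0.083 and 0.093, NEK11 A_23_P155301 between -0.016 and 0.64, and NEK11 A_23_P211973 between -0.26 and 0.60. NEK2 A_23_P35219, NEK4 A_24_P80338 and NEK6 kept their sign under all 13. Their groups did not overlap, so leaving out 1 array could not reverse them. The filters, the block, the intensity trend and the t-test leave every estimate unchanged. The probes of NEK8, which also kept its sign, and of NEK11 were dim and had less signal over background. The part of dimness in the signs was not tested, and 2 arrays a group limit every interval.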
